A study of Mus musculus with 768 samples.

Results

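Sgk1, a kinase induced by serum and glucocorticoids, was followed together with 7 further genes that glucocorticoid hormone is known to induce: Nfkbia, Fkbp5, Tsc22d3, Zbtb16, Ddit4, Klf9 and Per1. These 8 genes were taken by symbol from a count table of 32679 genes, and all 8 were present. The set was chosen by the count levels of these genes, by class and by mouse, in earlier results of these data, so their levels and treatment differences are given as a description. The table holds 768 wells of the dentate gyrus, of which 675 had at least 50000 counts and at least 1000 genes with a count. Levels are in CPM, counts scaled to a common total in each well, averaged over the wells of a mouse.

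Cells were sorted by the Nestin:GFP reporter from male Nestin:GFP mice, 94 cells per mouse, and made into Smart-seq2 libraries, which cover whole transcripts and carry no molecular identifiers. The reporter uses regulatory sequence of Nes, a neural stem cell gene, and the sorted cells were of many kinds, most of them glial or vascular by their markers. The animals, all aged 2 months, were injected weekly over 5 weeks, each time with 3 µl that held 150 pmol of oligonucleotide and lipofectamine 2000. Mice 1, 3, 5 and 7 received a negative control oligonucleotide and mice 2, 4, 6 and 8 a mimic of the microRNA miR-132. Mice 1 to 4 carry the date 17 April 2018 and mice 5 to 8 the date 19 April 2018, and both treatments are spread evenly over the dates. No mouse without an injection was analysed here, so what injection itself does to these genes was not measured. The design text places the letters AD before the tissue's name, and the sources used here do not explain them.

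Glucocorticoids enter the cell and bind the glucocorticoid receptor, a transcription factor kept ready in the cytoplasm by heat shock proteins. The bound receptor moves to the nucleus and switches on genes that carry its palindromic response element nearby. In the brain the hormone rises with the daily rhythm and with stress, and glia and endothelium respond to it along with neurons. Several of its targets are also induced by growth factors, calcium or inflammatory signals, so their level is not a measure of the hormone alone.

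Of the 8 genes, 7 had at least 1 promoter window in RefSeq (GRCm38.p6, 250 bases before to 50 after a start site), 15 windows in all, and Zbtb16 is named only. The windows below are shown because each holds the motif most tied to that gene's known control, in capitals. In the Sgk1 window chr10:21993640-21993939 (plus strand), the capitals mark the palindromic receptor element, AGAACA and TGTTCT with any 3 bases between them. In the Nfkbia window chr12:55492598-55492897 (minus strand), they mark a site type of NF-κB on the opposite strand, GGGA and TTTCC with any base between them. In the Per1 window chr11:69098699-69098998 (plus strand), they mark CACGTG, the E-box that clock factors bind.
Sgk1: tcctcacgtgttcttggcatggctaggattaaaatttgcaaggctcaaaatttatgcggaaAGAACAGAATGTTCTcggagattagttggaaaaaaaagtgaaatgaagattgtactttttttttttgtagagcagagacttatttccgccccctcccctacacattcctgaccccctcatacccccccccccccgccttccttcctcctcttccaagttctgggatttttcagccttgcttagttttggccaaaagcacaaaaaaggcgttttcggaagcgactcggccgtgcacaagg
Nfkbia: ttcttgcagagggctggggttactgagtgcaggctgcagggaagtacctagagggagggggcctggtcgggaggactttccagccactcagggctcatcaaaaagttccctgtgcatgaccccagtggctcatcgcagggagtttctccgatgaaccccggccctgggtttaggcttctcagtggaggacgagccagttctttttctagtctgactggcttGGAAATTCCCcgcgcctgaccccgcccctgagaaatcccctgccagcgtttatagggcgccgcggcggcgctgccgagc
Per1: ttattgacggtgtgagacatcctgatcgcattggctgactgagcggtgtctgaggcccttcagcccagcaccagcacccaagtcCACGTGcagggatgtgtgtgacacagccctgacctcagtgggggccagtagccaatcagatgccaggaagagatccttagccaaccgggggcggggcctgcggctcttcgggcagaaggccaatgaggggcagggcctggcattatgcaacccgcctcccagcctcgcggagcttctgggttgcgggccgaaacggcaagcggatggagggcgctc

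Searched on both strands, the palindrome stood in 3 of 32851 windows (0.00913%), 1 of which was this Sgk1 window, where it begins at base 62. Its core, ACANNNTGT, stood in 6.85% of all windows and in 2 of the 15 windows of the 8 genes, both of Sgk1. Its single arm TGTTCT was in 19.0% of all windows and in 4 of the 15. The NF-κB form shown was in 0.411% of all windows and, of the 15, in the Nfkbia window only. A looser form that contains it, GGGA and TTCC with any 2 bases between them, was in 1.47% of all windows and again in that window only. CACGTG was in 7.15% of all windows and in 3 of the 15, of Sgk1, Per1 and Fkbp5. The cyclic AMP element TGACGTCA was in 1.79% of all windows and in none of the 15. The first 5 letters of it, TGACG, were in 20.8% of all windows and in 5 of the 15. A match describes the letters of a window and was not tied to binding or to any level here.

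Each mouse kept 75 to 92 wells. The median kept well had 646537 counts over 2741 genes. Classes were set by clustering without the 8 genes or the other glucocorticoid genes and named from marker genes. Of the 675 wells, 43.6% were oligodendrocyte-like and 15.6% endothelial-like, and there were 94 astrocyte-like, 72 pericyte-like, 37 neuroblast-like, 16 fibroblast-like, 13 oligodendrocyte precursor-like and 12 smooth muscle-like wells. A further 16 wells held markers of several classes, and 16 wells, 2 per mouse, held over 6000 genes each and stay outside the classes. All 8 oligodendrocyte markers were found in at least 99.7% of oligodendrocyte-like wells, while the stem cell marker Hopx was in 1.36% of them. The labels give each well's mouse in 2 ways that agree on the mouse of only 96 of the 768 wells. Well names in the sample descriptions are used here, under which each mouse has 2 of the many-gene wells; by the sample titles a mouse has between 0 and 8 of them. Every difference by treatment or date given here rests on this choice. Levels are ordered over the 5 larger classes, oligodendrocyte-like, endothelial-like, astrocyte-like, pericyte-like and neuroblast-like, since the smaller ones hold 3 or more wells in at most 4 mice.

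Sgk1, whose product acts on ion channels, transporters and transcription factors, was present in endothelial-like and oligodendrocyte-like cells and almost absent from astrocyte-like, pericyte-like and neuroblast-like cells. Its mean over mice was 419 ± 265.1 CPM in endothelial-like cells (SD, n = 8 mice) and 332.1 ± 178.3 CPM in oligodendrocyte-like cells (SD, n = 8). These neighbours differed by less than their spread, and both lay above pericyte-like cells by more than it. In pericyte-like cells 2 of 72 wells held a count, both of mouse 4, and in neuroblast-like cells 1 of 37 did. In astrocyte-like cells 2 of 94 wells did (2.13%, exact 95% interval 0.259 to 7.48%). The share of wells with a count was 59.2% in oligodendrocyte-like (53.3 to 64.9%) and 41.9% in endothelial-like cells (32.3 to 51.9%), intervals that cover counting error only. With each well thinned to 50000 counts these shares were 57.8% and 39.05%, and that of astrocyte-like cells was 0%. Where present, Sgk1 was higher in endothelial-like wells, with a median of 825 CPM among wells with a count against 395 CPM in oligodendrocyte-like wells. Oligodendrocyte precursor-like cells, with 3 or more wells in only 2 mice, held Sgk1 in 9 of 13 wells, at 510 ± 271.1 CPM (SD, n = 2). All 16 many-gene wells held it, at 294.6 ± 125.4 CPM (SD, n = 8 mice).

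Nfkbia encodes the inhibitor that holds NF-κB in the cytoplasm and is itself an NF-κB target. Of the 5 larger classes it was highest in endothelial-like cells, at 1078 ± 266.9 CPM (SD, n = 8), above the other 4 by more than the spread. A count was present in 86.7% of endothelial-like wells (exact 95% interval 78.6 to 92.5%). Pericyte-like, oligodendrocyte-like and neuroblast-like cells followed at 132.9 ± 172.6, 90.7 ± 38.7 and 81.7 ± 63.4 CPM (SD, n = 8, 8 and 7), within their spread of each other. Astrocyte-like cells were the lowest of the 5 at 33.6 ± 22.2 CPM (SD, n = 8). Among the smaller classes, fibroblast-like cells had 553 ± 1051 CPM (SD, n = 4), a spread that reaches the endothelial-like mean. Smooth muscle-like cells had 371.7 ± 408 CPM (SD, n = 3), and 1 of 13 oligodendrocyte precursor-like wells held a count.

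Tsc22d3 encodes the leucine zipper protein GILZ, which dampens inflammatory signalling. Of the 5 classes it too was highest in endothelial-like cells, at 517 ± 246.7 CPM (SD, n = 8), above oligodendrocyte-like cells by more than the spread. The latter held 182.1 ± 31.1 CPM (SD, n = 8), the narrowest relative spread among these genes in that class, and neuroblast-like cells were the lowest of the 5 at 111.02 ± 57.8 CPM (SD, n = 7). Its mean in oligodendrocyte precursor-like cells, over 2 mice, was lower still at 28.2 CPM. Per1, a repressor of the circadian clock that hormone and light both induce, ranged from 284.7 ± 195.6 CPM in endothelial-like (SD, n = 8) to 83.6 ± 67.7 CPM in neuroblast-like cells (SD, n = 7). No neighbours in the order of its 5 class means differed by more than their spread.

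Klf9, a zinc finger transcription factor, had its highest mean in pericyte-like cells, at 80.5 ± 60.4 CPM, followed by astrocyte-like cells at 64.5 ± 27.01 CPM (SD, n = 8 each). Oligodendrocyte-like cells held 30.7 ± 10.9 CPM (SD, n = 8), and neighbours in this order again lay within their spread. Ddit4, whose product REDD1 restrains the growth kinase complex mTORC1, was detected widely at low level. In oligodendrocyte-like cells 53.1% of wells held a count, and the mean was 11.005 ± 5.83 CPM (SD, n = 8). Zbtb16, which encodes the repressor PLZF, was at 15.7 ± 12.5 CPM in oligodendrocyte-like and 17.9 ± 25.2 CPM in astrocyte-like cells (SD, n = 8 each). It was at 0 in all 37 neuroblast-like wells.

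Fkbp5 encodes FKBP51, the co-chaperone that lowers the receptor's affinity for hormone and so closes a feedback loop. It was close to absent: 6 oligodendrocyte-like wells (2.04%, exact 95% interval 0.753 to 4.39%) and 2 endothelial-like wells (1.90%) held a count. None of the 72 pericyte-like wells did, which allows a share of up to 4.17% at a floor of 3 counts (exact 95% upper limit 4.99%). In the many-gene wells 3 of 16 held a count. The highest mean of the 5 classes, 18.7 ± 39.5 CPM in neuroblast-like cells (SD, n = 7), came from 2 wells, 1 each of mice 2 and 4, and without mouse 4 it was 4.16 CPM. Fkbp5 was therefore too low to test in any comparison by treatment.

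**Figure D1:**
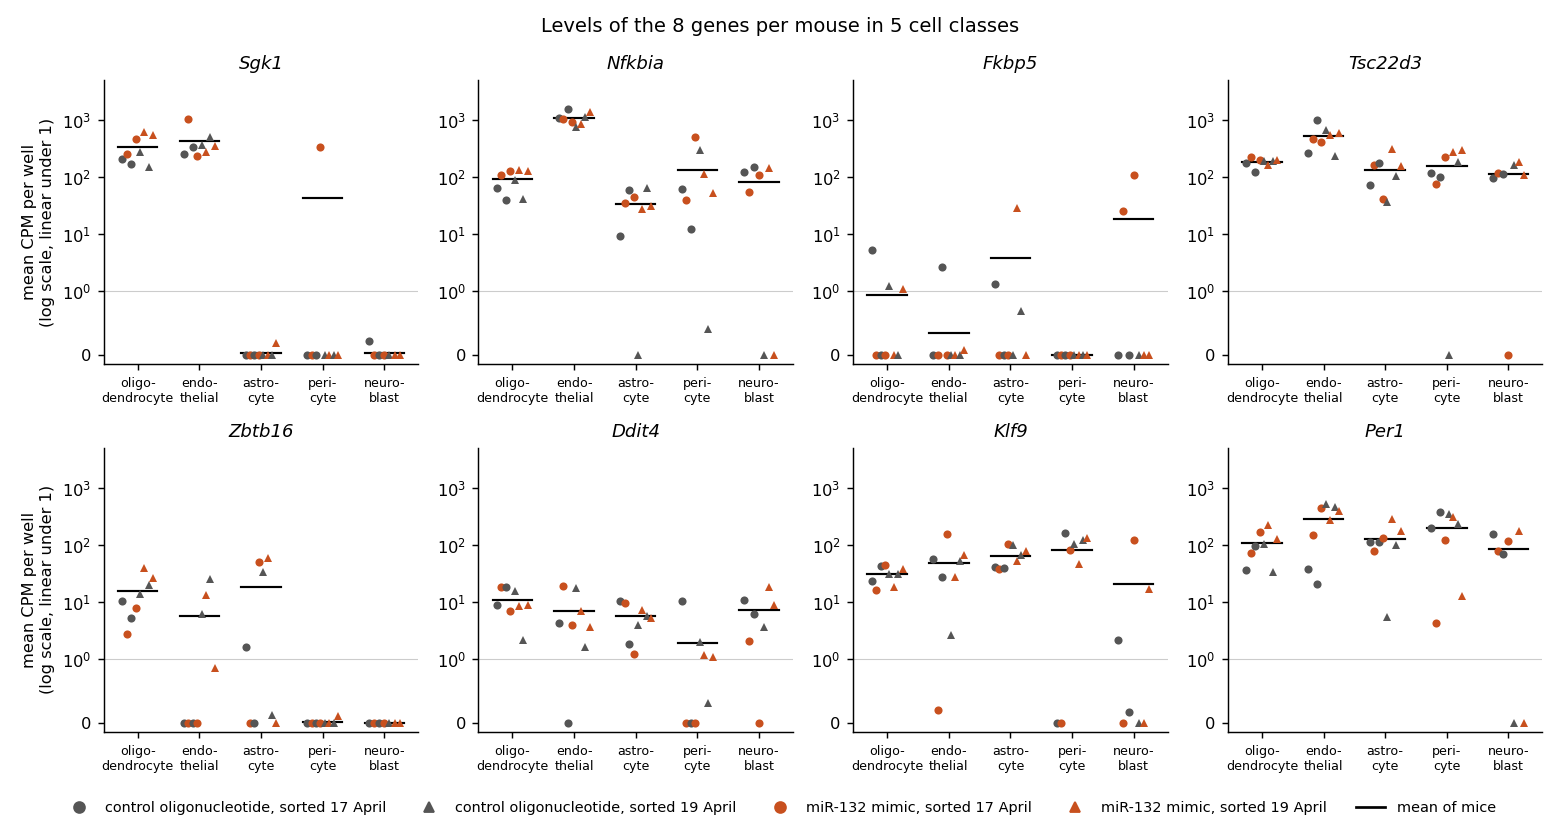
Mean CPM per well (vertical axis, logarithmic above 1 and linear below) of each of the 8 genes in 5 classes; each point is a mouse with at least 3 wells of the class, colour gives the treatment, shape the date and the bar the mean over mice. Nfkbia and Tsc22d3 are highest in endothelial-like cells, and Sgk1 is near 0 in astrocyte-like and neuroblast-like cells.

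Levels were compared between genes only per kilobase of exon sequence (GENCODE M21 exon unions on mm10). These values are means over mice given without a spread, so the order does not set close neighbours apart. In oligodendrocyte-like cells Sgk1 (chr10:21882184-21999903, plus strand) led with 67.7 CPM per kilobase. Nfkbia (chr12:55489410-55492647, minus strand) followed with 56.3 and Tsc22d3 (chrX:140539528-140600659, minus strand) with 41.95 CPM per kilobase. Per1 (chr11:69095217-69109960, plus strand) had 19.0 CPM per kilobase. Klf9, Ddit4, Zbtb16 and Fkbp5 stood at 6.38, 6.27, 2.97 and 0.0995 CPM per kilobase. In endothelial-like cells the order was led by Nfkbia at 670 CPM per kilobase, then Tsc22d3 at 119.1, Sgk1 at 85.4 and Per1 at 50.6. The libraries carry no strand information, and an antisense neighbour's reads cannot be told from a gene's own.

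The receptor itself, Nr3c1, was in 63.3% of oligodendrocyte-like wells, at a mean of 174.4 ± 32.2 CPM (SD, n = 8 mice). Its means in endothelial-like, astrocyte-like and pericyte-like cells were 245.4, 148.1 and 111.5 CPM. Hsd11b1, which regenerates active hormone within the cell, had a mean of 1244 ± 252.7 CPM in astrocyte-like cells (SD, n = 8) and of 1.94 CPM in oligodendrocyte-like cells. Hsd11b2, which inactivates the hormone, had no count in oligodendrocyte-like wells. Ndrg1, a myelin-related protein that SGK1 phosphorylates, was at 2284 ± 223.4 CPM in oligodendrocyte-like cells (SD, n = 8) and at 0.0798 CPM in astrocyte-like cells. Sgk2, a kinase of the same family, was at 114.6 ± 42.3 CPM in oligodendrocyte-like cells (SD, n = 8) and at 0 in endothelial-like cells. Nr3c1, Hsd11b1, Hsd11b2 and Sgk2 were picked for mention after their values were seen.

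The question of the design is whether the mimic changed the sorted cells. In oligodendrocyte-like cells, the class with the most wells, the mouse means of Sgk1, Nfkbia and Per1 were mostly higher in mimic mice, and those of the other 5 genes were not separated. None of the 8 passed the test across all genes. Sgk1 was at 208.4, 168.5, 269.01 and 148.6 CPM in control mice 1, 3, 5 and 7. It was at 249.4, 467, 603 and 542 CPM in mimic mice 2, 4, 6 and 8. The groups overlap only through mimic mouse 2, which lies below control mouse 5. Means were 198.6 ± 53.1 and 466 ± 154.4 CPM (SD, n = 4 each).

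Nfkbia was at 64.1, 38.8, 88.2 and 40.9 CPM in the control mice and at 108.2, 126.6, 130.5 and 128.1 CPM in the mimic mice, in the same order of mice. Its groups do not overlap, and the mimic values lie close together. Of all 7394 genes tested in this class, 1.42% had mimic means above every control mean without overlap, and of the 7 of the 8 genes that were tested 1 did. Since the genes were chosen with these values known, nothing is read from that share. Per1 was at 35.8, 94.2, 101.9 and 32.97 CPM in the control mice and at 72.3, 163.9, 226.01 and 128.2 CPM in the mimic mice. Here too mimic mouse 2 is the one that falls among the controls.

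Fitted over mice with the date as covariate, the log2 fold of mimic over control was 1.15 ± 0.25 for Sgk1, 1.11 ± 0.28 for Nfkbia and 1.13 ± 0.42 for Per1 (SE, 4 mice each). By edgeR's quasi-likelihood test with Benjamini-Hochberg adjustment over 7394 genes, the adjusted p was 0.999 for each of these 3 genes. The test called 0 genes of the whole table (0.0%), with 2.98% of them at an unadjusted p under 0.05, and DESeq2 called 3. Whether Sgk1 is called turns on the method: DESeq2 gave it an adjusted p of 0.0201, and edgeR without the filter on low counts 8.88e-05, at log2 folds of 1.16 each. The folds also turn on the well map. By the sample titles, the log2 fold was 0.12 for Sgk1, -0.05 for Nfkbia and -0.44 for Per1, with adjusted p of 1.00 for each in the same edgeR test.

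In each combination of date and first part of the well name stood 1 control and 1 mimic mouse (1 and 2, 3 and 4, 5 and 6, 7 and 8). Sgk1, Nfkbia and Per1 were higher in the mimic mouse of all 4 pairs, Tsc22d3 and Zbtb16 in 3, Klf9 and Ddit4 in 2 and Fkbp5 in 1. The share of all genes higher in all 4 pairs was not counted. Since the genes were chosen with these values known, nothing is read from the pair counts. With these combinations as a block, chosen after seeing the data, the log2 folds were 1.15, 1.17 and 1.19 for Sgk1, Nfkbia and Per1, with adjusted p of 0.995 each by edgeR's quasi-likelihood test.

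Within each date the ratio of mean CPM, mimic over control, kept its direction for these 3 genes. For Sgk1 it was 1.90 on 17 April and 2.74 on 19 April. The ratios of Nfkbia were 2.28 and 2.00, and those of Per1 were 1.82 and 2.62, over 2 mice against 2 in each case. Across the 8 fits that each left out 1 mouse, all of these 3 folds stayed positive. The share of all genes that kept their direction in these ways was not counted. Since the genes were chosen with these values known, nothing is read from the kept direction.

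Both the share of oligodendrocyte-like wells with Sgk1 and the level within such wells were higher on average in mimic mice. The share was 46.5 ± 8.46% in control and 73.8 ± 17.0% in mimic mice (SD, n = 4 each). The mean among wells with a count was 423 ± 46.1 CPM in control and 617 ± 85.5 CPM in mimic mice (SD, n = 4 each), and these ranges, 363.3 to 473 and 499 to 690.4 CPM, do not overlap, as in 0.707% of 7211 tested genes with a count in every mouse. For Nfkbia the share was 26.7 ± 3.14% against 40.7 ± 6.22% (SD, n = 4 each), also without overlap, as in 1.73% of all genes tested. Nothing is read from these shares either. For Per1 the share of wells was 28.6 ± 13.3% against 53.3 ± 18.4% (SD, n = 4 each), and the ranges overlap. Median depth per mouse was 623150 to 851830 counts in control and 657210 to 871630 in mimic mice.

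Of the other 4 tested genes the groups overlapped, and none passed the test. Tsc22d3 had means of 168.3 ± 32.8 and 195.9 ± 25.8 CPM in control and mimic mice (SD, n = 4 each) and a log2 fold of 0.15 ± 0.22 (SE). The log2 fold was 0.19 ± 0.64 for Zbtb16, -0.12 ± 0.49 for Klf9 and -0.02 ± 0.71 for Ddit4 (SE). Within the dates the ratio of mean CPM was 1.44 and 0.953 for Tsc22d3, 0.682 and 2.01 for Zbtb16, 0.949 and 0.983 for Ddit4, and 0.916 and 0.908 for Klf9, on 17 and 19 April. The intervals of the folds are wide, and for Ddit4 span from -1.44 to 1.39 at 2 SE. Over the 7 tested genes the median log2 fold was 0.19, against 0.01 over all genes tested.

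**Figure D2:**
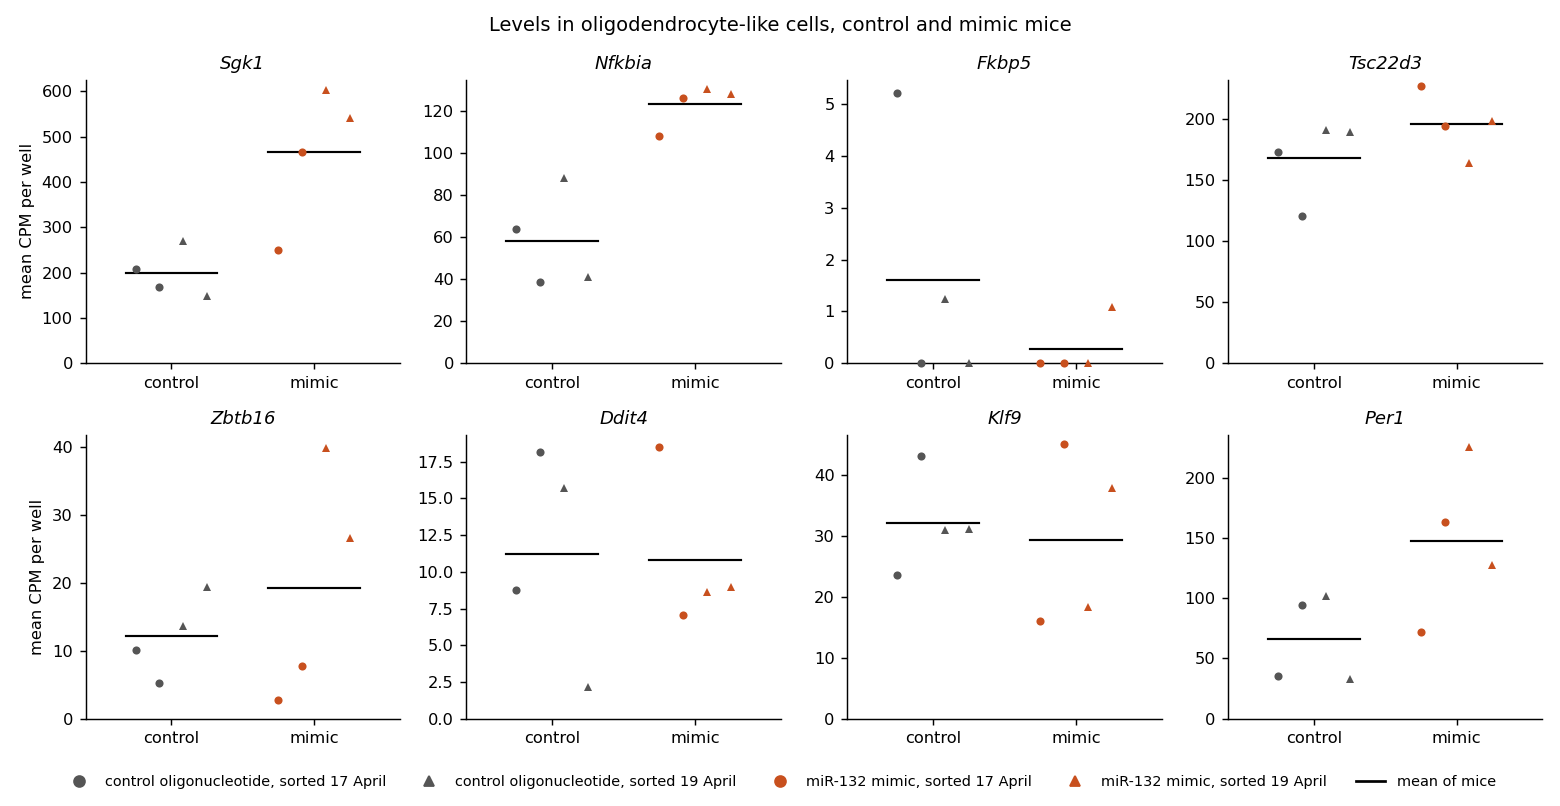
Mean CPM per well (vertical axis, linear, starting at 0) of each of the 8 genes in oligodendrocyte-like cells of the 4 control and 4 mimic mice; points are mice, shapes give the date and bars the group mean. Mimic mice have the higher mean for Sgk1, Nfkbia and Per1, and their points do not overlap the controls for Nfkbia.

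Summed markers of other classes differed between the treatments in both directions in the same wells. Among those lower in mimic mice, control and mimic means were 2146 and 1995 CPM for oligodendrocyte precursor markers and 26.4 and 21.7 CPM for stem cell markers. For smooth muscle markers they were 2.74 and 0.22 CPM. The ranges of these lists overlap. Of the 3 ependymal markers only Foxj1 was detected, Ccdc153 and Tmem212 being at 0, and the sum of the list was 6.29 to 20.2 CPM in control and 24.6 to 39.9 CPM in mimic mice. Of all genes tested in this class, 1.42% had mimic means above every control mean. The sum of the 6 neuroblast markers, nearly all from Tubb3, was 0.114 to 50.2 CPM in control and 33.8 to 258.6 CPM in mimic mice, ranges that overlap. The part of these markers in the result was not tested. Summed oligodendrocyte markers were 83271 to 86594 CPM in control and 82995 to 88108 CPM in mimic mice. Endothelial markers, of the class where Nfkbia was highest, summed to at most 2.36 CPM in control and 4.23 CPM in mimic mice.

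Immediate early genes, which stimulation and tissue handling both switch on, also leaned with treatment. Their sum was 687 to 4459 CPM in oligodendrocyte-like cells of control mice and 3314 to 5235 CPM in those of mimic mice. Of the 13 members of this list tested there, 12 had a fold above 0 and 0 were called, with a median log2 fold of 0.74. Over all genes tested, 50.6% had a fold above 0. Fos, the highest of the list in CPM, was at 1123 ± 787 CPM in control and 1710 ± 407 CPM in mimic mice (SD, n = 4 each; log2 fold 0.74 ± 0.69, SE). Egr1, next in CPM, was at 307.2 ± 244.3 and 446 ± 67.8 CPM (SD, n = 4 each; log2 fold 0.86 ± 1.22, SE).

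The oligodendrocyte-like wells formed 2 clusters, the smaller, of 84 wells, with the higher immediate early sum in all 7 mice that had at least 3 wells in both. Immediate early genes outside the glucocorticoid list were not removed before clustering, and the clusters were told apart by this sum. Their difference in it was thus largely set in advance. Within these 7 mice Sgk1 was higher in the high cluster in 6 of 7, at 524 ± 276.9 against 283.9 ± 131.2 CPM (SD, n = 7). Nfkbia was higher there in 5 of 7 mice, at 135.2 ± 73.8 against 79.2 ± 30.6 CPM, and Per1 in 5 of 7, at 142.4 ± 73.96 against 106.6 ± 80.7 CPM (SD, n = 7). Tsc22d3 was higher in 3 of 7 and lower in 4. In the high cluster Sgk1 was at 162.8, 251.7 and 326.7 CPM in control mice 1, 3 and 5 and at 605, 658, 813 and 854 CPM in mimic mice 2, 4, 6 and 8. In the low cluster control mice 1, 3, 5 and 7 held 236.98, 139.8, 254.2 and 155.7 CPM. There mimic mice 4, 6 and 8 held 367.99, 488 and 369.2 CPM, and mimic mouse 2 lay below every control mouse. The groups were thus apart in the high cluster and overlapped through mouse 2 in the low cluster. Control mouse 7, with 1 well in the high cluster, is left out there. The share of all genes that separate in this way was not counted, and nothing is read from the separation. Whether the difference by treatment itself varied between the clusters was not tested.

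**Figure D3:**
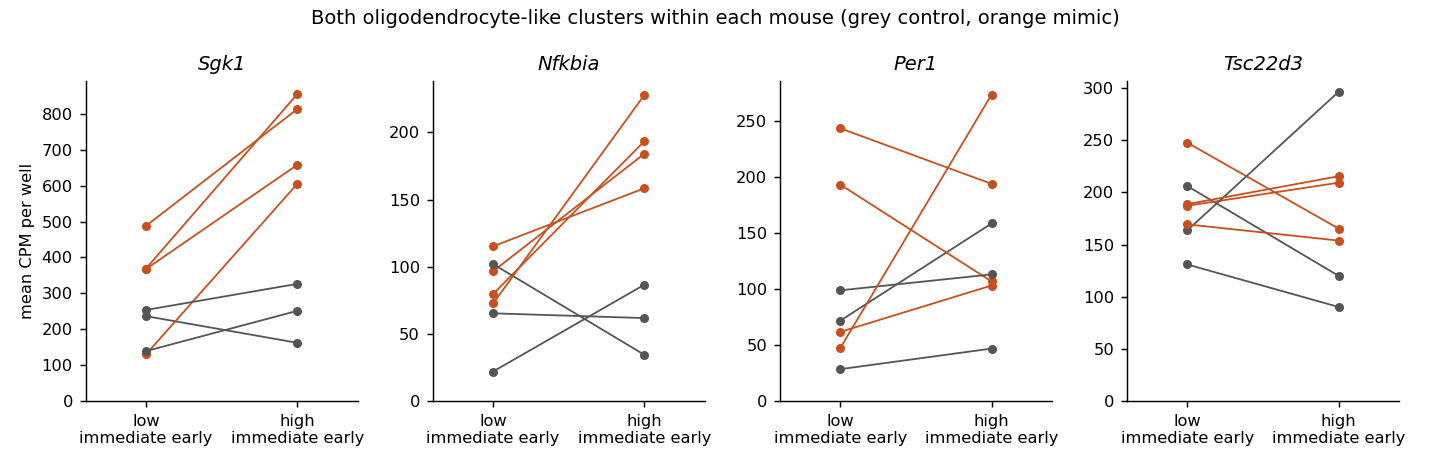
Mean CPM per well (vertical axis, linear, starting at 0) of 4 genes in the low and the high immediate early cluster of oligodendrocyte-like cells; each line joins both clusters of 1 of the 7 mice with at least 3 wells in each, grey for control and orange for mimic. Sgk1 is higher in the high cluster in 6 of 7 mice, and Tsc22d3 in 3 of 7.

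In endothelial-like cells the mouse means of Sgk1 did not separate by treatment. Sgk1 was at 253.5, 335.3, 363.6 and 500.1 CPM in control mice 1, 3, 5 and 7 and at 1041, 228.5, 276.1 and 352.6 CPM in mimic mice 2, 4, 6 and 8. Mimic mouse 2, with 7 wells, stands far above all others, and the rest overlap. Mouse 1 had 4 wells of this class and did not enter the fit, which left 3 control and 4 mimic mice. The log2 fold was 0.22 ± 0.63 for Sgk1, and without mouse 2 it was -0.39. For Nfkbia it was -0.08 ± 0.34, for Tsc22d3 -0.30 ± 0.45, for Per1 0.79 ± 1.12, for Klf9 0.55 ± 1.92 and for Ddit4 0.65 ± 2.46 (SE). The median over all 5751 genes tested was 0.29, and 60.1% of them lay above 0, so these folds stand beside a shifted centre. By edgeR's quasi-likelihood test 0 genes were called (0.0%), with 1.84% of all tested at an unadjusted p under 0.05, and DESeq2 called 28, none of them among the 8 genes. On simulated counts of this class the same test found 0% of 4-fold changes. The difference between both classes was not tested.

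Summed over all kept wells, the class shares of a mouse enter the level, and fewer cells of a type cannot be told from less RNA per cell. Sgk1 was at 149.2, 129.4, 230.5 and 164.6 CPM in control mice 1, 3, 5 and 7 and at 240.1, 330.2, 313.1 and 262.4 CPM in mimic mice 2, 4, 6 and 8. These groups do not overlap; 1.18% of the 8823 genes tested had mimic means above all controls, and of the 6 tested among the 8 genes 1 did. The log2 fold of Sgk1 was 0.84 ± 0.22 (SE, adjusted p = 0.835 by edgeR's quasi-likelihood test). Per1, Nfkbia, Tsc22d3 and Klf9 had log2 folds of 0.42 ± 0.26, 0.39 ± 0.25, 0.26 ± 0.18 and 0.20 ± 0.45, and Ddit4 of -0.28 ± 0.54 (SE). edgeR called 0 genes (0.0%), with 4.48% at an unadjusted p under 0.05, and DESeq2 called 12, none of the 8 genes among them. In the 16 many-gene wells Nfkbia was at 98.4, 75.3, 94.6 and 109.01 CPM in control mice 1, 3, 5 and 7 and at 157.3, 122.8, 233.9 and 128.3 CPM in mimic mice 2, 4, 6 and 8. These do not overlap, as in 1.18% of the 15954 genes found in 10% or more of these wells, while the groups of Sgk1, 261.9 ± 127.9 and 327.2 ± 132.2 CPM (SD, n = 4 each), do.

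**Figure D4:**
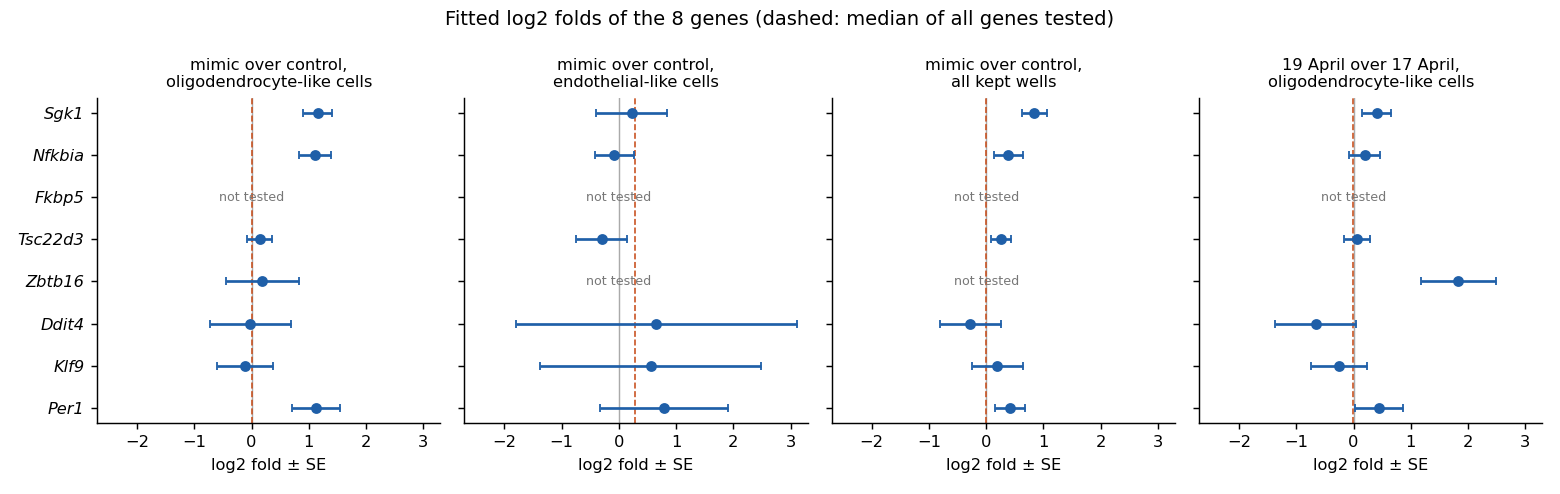
Fitted log2 folds (horizontal axis, points with SE bars) of the tested genes for mimic over control in oligodendrocyte-like cells (7 genes), endothelial-like cells (6 genes) and all kept wells (6 genes), and for 19 April over 17 April in oligodendrocyte-like cells; dashed lines mark the median of all genes tested. Sgk1, Nfkbia and Per1 lie near 1.1 in oligodendrocyte-like cells, and the bars are widest in endothelial-like cells.

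Between dates, none of the 7 tested genes passed the test in oligodendrocyte-like cells. Zbtb16, with the largest fold of the 7, was at 10.2, 5.18, 2.74 and 7.74 CPM in mice 1, 3, 2 and 4 of 17 April, and at 13.6, 19.4, 39.9 and 26.7 CPM in mice 5, 7, 6 and 8 of 19 April. The dates do not overlap, as in 1.91% of all genes tested with the later date higher, and the log2 fold of the later date was 1.83 ± 0.66 (SE, adjusted p = 1.00 by edgeR's quasi-likelihood test). The same fold was 0.40 ± 0.25 for Sgk1, 0.44 ± 0.41 for Per1, 0.20 ± 0.27 for Nfkbia, 0.06 ± 0.22 for Tsc22d3, -0.26 ± 0.49 for Klf9 and -0.66 ± 0.71 for Ddit4 (SE). That of Ddit4 was -1.36 to -0.27 with 1 mouse left out. edgeR called 0 of 7394 genes by date (0.0%), with 3.69% at an unadjusted p under 0.05, and DESeq2 called 4.

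The other genes of the pathway are given by lists that were chosen with earlier results known, in oligodendrocyte-like cells and with none called. Of the receptor and its partners, 9 of 11 were tested, 4 above and 5 below 0, with a median log2 fold of -0.12. The heat shock proteins Hsp90ab1 and Hsp90aa1, which hold the receptor ready, had log2 folds of 0.05 ± 0.21 and -0.14 ± 0.28 (SE). Of 30 other glucocorticoid-induced genes 14 were tested, 10 above and 4 below 0, with a median of 0.26. Arrdc3, an arrestin-related protein, was at 300.9 ± 87.2 and 359.9 ± 98.9 CPM, and Dusp1, a phosphatase that turns off MAP kinases, at 189.9 ± 132.3 and 352.95 ± 172.8 CPM in control and mimic mice (SD, n = 4 each). Dusp1 is also in the immediate early list. At an unadjusted p under 0.05 by edgeR's quasi-likelihood test, 0 genes of this list were higher and 1 was lower. That gene, Cdk5rap3, named after its values were seen, was at 80.8 ± 38.1 and 25.8 ± 9.81 CPM (SD, n = 4 each). Its log2 fold was -1.77 ± 0.52 (SE). Of 15 clock genes 8 were tested, and all 8 lay above 0, with a median log2 fold of 0.73. By edgeR's quasi-likelihood test 0 of them had an unadjusted p under 0.05. Over all genes tested, 50.6% lay above 0. Genes of a list come from the same mice and are not independent of each other, so nothing is read from these counts. Cry2 and Tef, the highest of them in CPM, had folds of 0.34 ± 0.40 and 0.44 ± 0.37 (SE).

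Of the kinases related to SGK1 with their regulators and substrates, 9 of 10 were tested, 4 above and 5 below 0, with a median log2 fold of 0.00. Ndrg1 and Ndrg2 had folds of 0.05 ± 0.12 and -0.03 ± 0.35 (SE). Of 14 genes on the NF-κB side 3 were tested, 2 above and 1 below 0. Rela, the NF-κB subunit that Nfkbia's product restrains, had a fold of 0.09 ± 0.26, and Nfkbib, a sister inhibitor, of -0.42 ± 0.46 (SE). Of 11 genes of mTOR and stress responses 5 were tested, 3 above and 2 below 0, with a median of 0.05. Vldlr, a lipoprotein receptor, had a fold of -0.06 ± 0.27 and Atf4, a stress transcription factor, of 0.05 ± 0.18 (SE).

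From well to well, the 8 genes scarcely varied together. Over the oligodendrocyte-like wells the 28 pairs had Pearson r of log2(CPM + 1) between -0.08 and 0.13, with a median of 0.00. Sgk1 and Nfkbia had r = 0.03, and 62 wells held a count of both. Over the endothelial-like wells the pairs ran from -0.08 to 0.29, the highest being Tsc22d3 with Per1. Values are sparse, wells of 1 mouse share their library preparation, and such low correlations are no finding. An oligodendrocyte-like well held a count of 2.95 of the 8 genes on average, an endothelial-like well of 3.14, an astrocyte-like well of 1.96 and a pericyte-like well of 1.38.

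**Figure D5:**
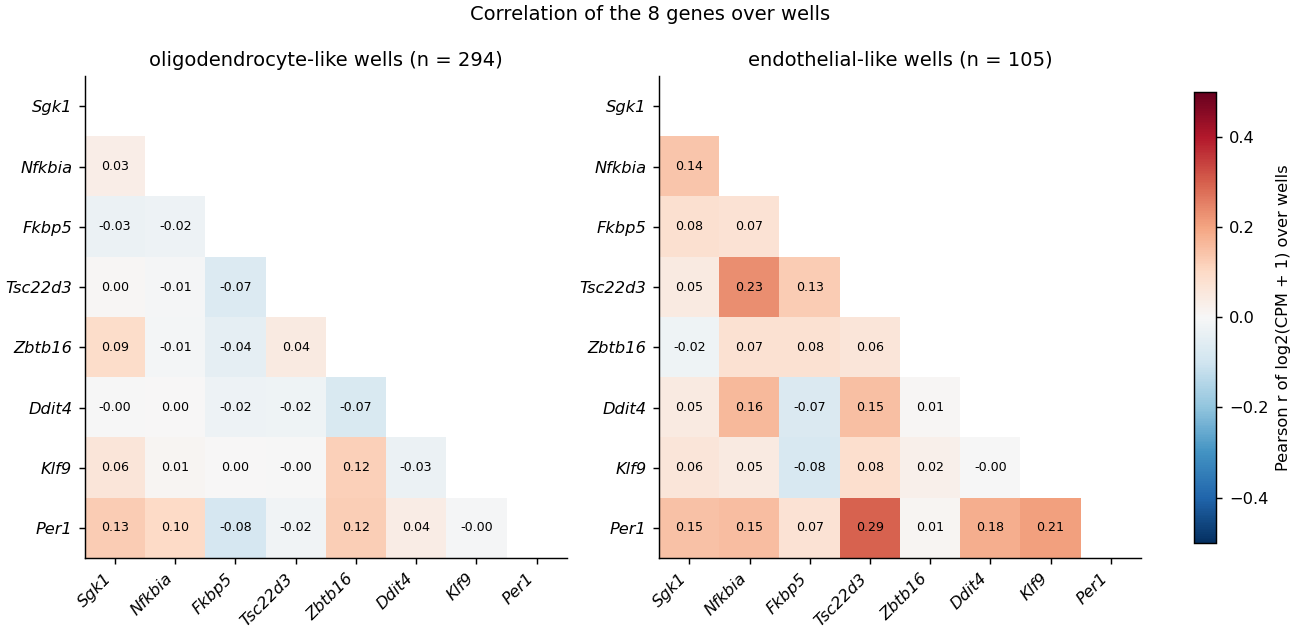
Pearson r of log2(CPM + 1) over wells for each pair of the 8 genes, in the oligodendrocyte-like wells (left) and the endothelial-like wells (right); colour and printed value give r. All pairs lie between -0.08 and 0.13 on the left, and between -0.08 and 0.29 on the right.

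Of the 10 genes most like Sgk1 over oligodendrocyte-like wells 5 were in the immediate early list. Among 7568 genes in oligodendrocyte-like wells the highest r were those of Junb (0.27), Egr1 (0.24), Wnk1 (0.21), Ibtk (0.21), Fos (0.21), Stag1 (0.21), Zfp36 (0.20), Fosb (0.20), Aktip (0.20) and Dpysl2 (0.20). Among 6177 genes in endothelial-like wells they were Atf3 (0.52), Fos (0.45), Junb (0.44), Egr1 (0.43) and Dnajc1 (0.40), the first 4 of the immediate early list. The r of Sgk1 with the summed immediate early list was 0.19 in oligodendrocyte-like and 0.42 in endothelial-like wells, and its r with the logarithm of total counts was 0.00 and 0.02. For the other genes in oligodendrocyte-like wells, the highest r was that of Cnot1 for Nfkbia (0.22), Gm12350 for Tsc22d3 (0.21), Mcc for Zbtb16 (0.25), Pum3 for Ddit4 (0.25), Wwox for Klf9 (0.21) and Gm13436 for Per1 (0.23). Next came Zfp36 and Rtca for Nfkbia (0.21 and 0.19), and Mbp and Ermn for Tsc22d3 (0.20 and 0.19). Psmd12 and C230037L18Rik followed for Zbtb16 (0.24 each), and Mir7052 and Btg2 for Ddit4 (0.23 and 0.22). Anp32e and 2900055J20Rik followed for Klf9 (0.20 each), and Serpina3n and Tubb3 for Per1 (0.23 and 0.22). All genes named here were picked for having the highest r among the 7568 or 6177 genes compared. How high the top r of unrelated genes would be was not tested, so nothing is read from which genes are named. Wells were pooled over mice, so differences between mice also enter these r.

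From mouse to mouse, in contrast, the orders of the mice by Sgk1, Nfkbia and Per1 were alike in oligodendrocyte-like cells. Co-variation over mice was among the values that chose the genes, so it is described with no test. Over 8 mice the log2 mean CPM + 1 of Sgk1 had a Pearson r of 0.91 and a Spearman rho of 0.95 with Nfkbia. With Per1 it had r = 0.84 and rho = 0.90. Without mice 6 and 8, the farthest from the median of Sgk1, r was 0.91 with Nfkbia and 0.76 with Per1. The mice differ in treatment, and the treatment difference in these genes is part of both values. A group or date holds 4 mice, too few for a value of its own. With 1 mouse left out at a time, r stayed between 0.87 and 0.96 for Nfkbia and between 0.77 and 0.94 for Per1. By the sample titles, r was 0.19 with Nfkbia and -0.40 with Per1. The other 5 genes had r between -0.09 and 0.49 with Sgk1.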

How the data were processed

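Gene counts were measured in 768 Smart-seq2 wells of 8 mice. The values are whole-number counts per gene, deposited by the authors in 1 table. The tools named per the submitters' processing notes are STAR, featureCounts 1.5.1 of Subread, FastQC and Seurat 2.3.1, with build mm10, and their settings are not given in the sources used here. The 8 genes, the lists and the tests were chosen with earlier results of these data known.

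Wells with at least 50000 counts and 1000 genes were kept. Leiden clustering at resolution 1 ran on log counts per 10000 of 2000 variable genes, with 15 neighbours over 20 components (scanpy 1.11.5, igraph 0.11.9), without the 8 genes, wells over 6000 genes and the receptor and glucocorticoid lists. Clusters were named from fixed markers. Wells with at least 50% of another class's markers at 50 CPM were set apart, a rule made after seeing the data, as was the limit of 6000 genes. No doublet caller was run.

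The mouse is the replicate. Counts were summed per mouse, at least 5 wells each, and genes with a count in 10% of wells that passed filterByExpr were tested with edgeR 4.0.16 (TMM, quasi-likelihood, date as covariate, two-sided, Benjamini-Hochberg at 0.05, R 4.3.3). DESeq2 1.42.0 was an alternative, as were no filter, no scaling, no covariate, the well's name prefix as covariate or with the date as block, the title map, a mitochondrial limit of 15%, 200000 counts and each mouse left out. Clustering was varied for class levels. On simulated counts it recovered 13% of the genes set to 2-fold and 77% of those set to 4-fold in all kept wells (8823 genes), and 7% and 43% in oligodendrocyte-like cells (7394 genes). Named genes are the 8, the 10 nearest to Sgk1 in oligodendrocyte-like and 5 in endothelial-like wells, the 3 nearest to each other gene, and the 2 most abundant of each list, unless stated. Fkbp5 has no nearest genes, being in under 10% of wells. Mice are not stated to be littermates or independent cohorts, so p-values measure the spread between these mice. Intervals and floors (3 counts) cover counting error only. The SE of an edgeR fold is the absolute log2 fold divided by the square root of the test's F statistic.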

Additional observations from a re-analysis of the deposited data

Results flagged for a closer look

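Of 32 groups of 4 mice examined for a value far from the others in oligodendrocyte-like cells and over all kept wells, 2 held one, and chance gives about 1 in 20. Among mimic mice, mouse 8 alone had any Fkbp5 in oligodendrocyte-like cells, at 1.09 CPM. Mimic mouse 2 had the highest Ddit4 of its group in these cells, at 18.5 CPM, apart from mice 4, 6 and 8.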

How the results depend on the processing

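By edgeR's quasi-likelihood test no gene was called by treatment or date under the design as given. DESeq2 called 12 genes over all kept wells, 3 in oligodendrocyte-like and 28 in endothelial-like cells, and 4 by date in oligodendrocyte-like cells. Without the filter on low counts edgeR called 84, 19, 7 and 12. Leaving out each mouse left all 4 counts at 0. Control and mimic mice share no replicate number, so they could not be paired by it. The only pairing used was the block of date and name prefix. All 96 alternatives of the class levels moved them by less than 1 SD, which for Fkbp5 spans a fall from 18.7 to 4.16 CPM without mouse 4, and 39 of 399 alternatives of the folds turned their sign. Leaving out 1 mouse turned signs within these ranges of log2 fold by treatment: Ddit4 -0.62 to 0.31 and Klf9 -0.29 to 0.44 over all kept wells; Ddit4 -0.41 to 0.67, Klf9 -0.46 to 0.12, Zbtb16 -0.13 to 0.60 and Tsc22d3 -0.0386 to 0.27 in oligodendrocyte-like cells. In endothelial-like cells they were Sgk1 -0.39 to 0.49, Ddit4 -0.88 to 4.06, Per1 -0.54 to 1.88, Nfkbia -0.39 to 0.35, Klf9 -1.11 to 2.06 and Tsc22d3 -0.72 to 0.37. By date they were Nfkbia -0.0253 to 0.36, Klf9 -0.51 to 0.0913 and Tsc22d3 -0.13 to 0.19. The lowest and highest r of Sgk1 were -0.27 and 0.25 with Fkbp5, -0.19 and 0.45 with Tsc22d3, -0.25 and 0.29 with Klf9, and -0.69 and 0.28 with Ddit4. By the sample titles the fold turned to 0.31 for Ddit4, -0.40 for Per1, -0.10 for Klf9 and -0.14 for Tsc22d3 over all kept wells, to 0.54 for Ddit4, -0.44 for Per1 and -0.0474 for Nfkbia in oligodendrocyte-like cells, and to 0.55 for Nfkbia and -0.16 for Klf9 in endothelial-like cells. The r turned to 0.55 with Fkbp5 and -0.40 with Per1. On linear CPM r was -0.25 with Ddit4 and 0.00727 with Klf9. In endothelial-like cells Per1 had -0.13 without the date and Nfkbia 0.0486 with the name prefix as covariate and 0.0104 from 200000 counts. The cause of these changes was not tested. With date and name prefix together as a block, the fold was 0.21 for Ddit4 in oligodendrocyte-like and -0.39 for Sgk1 in endothelial-like cells. This block and leaving the mixed wells out of all kept wells were added after seeing the data. Few wells per mouse and sparse counts limit the endothelial-like, Fkbp5 and Zbtb16 values.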
